A study of Mus musculus with 5 samples.

Results

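The Eph receptors and ephrins described here are 10 genes of the 32285 listed in each library, taken by symbol. They are the receptors Epha1, Epha2, Epha4, Epha5, Epha7, Ephb2, Ephb3 and Ephb4 and the ligands Efnb1 and Efnb2. The family holds 12 further genes in the list, which are summarized where they bear on the members. EpiSCs, a pluripotent mouse line kept from the epiblast after implantation, were turned toward mesoderm over 3 days in N2B27 medium with 1 µM of the Wnt agonist Chi and 8 ng/ml BMP4. The cultures differed in their FGF treatment. They received 0, 0.75, 3 or 12 ng/ml FGF2, or 30 nM of the FGF receptor inhibitor AZD4547 (FGFRi), for which no FGF2 dose is stated. Each condition was 1 library of single cells from the same wild-type cells, and with no repeat cultures, differences between conditions were described and not tested. All intervals given are 95% intervals and cover counting error only.

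Eph receptors are receptor tyrosine kinases that bind ephrins on the surface of neighboring cells. The contact signals in both directions, forward through the kinase of the receptor and in reverse through the ligand, and often ends in repulsion of the cells from each other. EphA receptors mainly bind the ephrin-A ligands, which are tethered by a lipid anchor, whereas EphB receptors bind the transmembrane ephrin-B ligands, and EphA4 binds ligands of both classes. In the early embryo, the family is known for sorting cells at tissue borders, among them the borders between somites.

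Levels are given in CPM, the unique molecular identifiers (UMIs) of a gene summed over retained cells and scaled to the usual common total. Between 1696 and 2725 cells per library were retained, and the median depth was 24408 UMIs per cell in the FGFRi library and between 27451.5 and 29661.5 UMIs in the FGF2 libraries. At most 2 cell barcodes were shared between any 2 libraries. The libraries themselves had different cell makeups. Summed CPM of 8 epithelial markers went from 2836 with FGFRi to 1024 at 12 ng/ml FGF2, and that of 4 presomitic mesoderm markers from 2.87 to 221. Krt8 and Krt18 held most of the epithelial sum with FGFRi, at 942 and 1350 CPM. The other epithelial markers were each lower with FGFRi than without FGF2, among them Cdh1 (85.8 and 93.6 CPM) and Epcam (267 and 332 CPM). The sum of 6 mesenchymal markers was 1463 CPM with FGFRi and between 262 and 448 CPM in the FGF2 libraries. Vim alone was at 1203 CPM with FGFRi, where Zeb1 and Zeb2 were highest as well. Snai1 was lower with FGFRi than at 12 ng/ml (4.24 and 22.9 CPM), and so was Cdh2 (86.3 and 122 CPM). Of 6 endothelial markers, 0 reached 5 CPM in any library, and their sum was between 0.961 and 7.57 CPM, lowest at 12 ng/ml. Cdh5, which defines endothelium, was at 0.26 CPM or less in every library. In sums over a library, fewer cells of a type and less RNA per cell cannot be told apart. The part of the cell makeup in the levels over whole libraries was not tested, and levels within groups of cells are given where they bear on it.

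The promoters of 4 members are shown, chosen by the levels of these genes. Both ephrins were lower at higher FGF2 doses, Epha5 was nearly absent with FGFRi, and Epha1 differed between cadherin states in all libraries. No result rests on the promoter letters. The windows run from 250 bases before to 50 bases after the annotated start, come from RefSeq on GRCm38.p6 and are written from 5′ to 3′ on the strand of the gene. The window of Efnb2 lies at chr8:8661193-8661492 on the minus strand, that of Efnb1 at chrX:99135811-99136110 on the plus strand, that of Epha5 at chr5:84417333-84417632 on the minus strand, and that of Epha1 at chr6:42373219-42373518 on the minus strand. Capitals mark the letters CAGGTG or the reverse complement CACCTG, the core of the E-box that Snail family repressors bind.
Efnb2: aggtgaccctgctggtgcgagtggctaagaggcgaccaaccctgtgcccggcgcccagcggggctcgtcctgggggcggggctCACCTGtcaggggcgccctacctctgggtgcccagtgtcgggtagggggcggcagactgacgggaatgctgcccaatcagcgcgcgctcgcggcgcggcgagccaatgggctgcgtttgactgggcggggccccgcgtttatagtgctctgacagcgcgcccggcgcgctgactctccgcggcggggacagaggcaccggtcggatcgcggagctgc
Efnb1: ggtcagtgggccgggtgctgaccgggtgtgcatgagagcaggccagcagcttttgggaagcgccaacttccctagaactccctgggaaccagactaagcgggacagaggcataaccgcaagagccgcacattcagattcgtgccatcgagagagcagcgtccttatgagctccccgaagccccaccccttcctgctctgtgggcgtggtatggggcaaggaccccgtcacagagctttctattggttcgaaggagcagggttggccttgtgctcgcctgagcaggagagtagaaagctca
Epha5: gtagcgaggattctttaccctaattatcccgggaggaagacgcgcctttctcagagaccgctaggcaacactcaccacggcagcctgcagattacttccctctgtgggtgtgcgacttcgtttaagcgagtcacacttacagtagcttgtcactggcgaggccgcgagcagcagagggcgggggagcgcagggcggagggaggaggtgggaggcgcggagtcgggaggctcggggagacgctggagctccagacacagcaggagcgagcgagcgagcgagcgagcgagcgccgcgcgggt
Epha1: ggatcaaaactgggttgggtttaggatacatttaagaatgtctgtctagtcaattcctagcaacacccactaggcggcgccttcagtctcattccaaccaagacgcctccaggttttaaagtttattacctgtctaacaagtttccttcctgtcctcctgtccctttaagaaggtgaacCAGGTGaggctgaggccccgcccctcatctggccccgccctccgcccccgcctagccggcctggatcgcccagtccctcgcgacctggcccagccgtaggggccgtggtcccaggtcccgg

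All 10 members had a promoter window in RefSeq, 11 windows in total, since Epha7 has a pair of starts. On either strand, the E-box letters CAGGTG occurred in the windows of 3 members, Efnb2, Epha1 and Ephb2, and in 20.2% of all 32851 windows. The T-box letters AGGTGT occurred in 0 member windows and in 13.7% of all windows. The TCF/LEF letters TTCAAAG occurred only in the window of Epha2 among members, and in 5.14% of all windows. The ETS letters CCGGAA occurred only in the window of Ephb2 among members, and in 14.9% of all windows. The median GC content of the member windows was 64.7%, and that of all windows 52.7%. These matches describe the letters in the windows and show no binding.

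The ephrin-B ligands Efnb1 and Efnb2 were lowest where FGF2 was highest. Efnb2 (chr8:8617434-8661242, GRCm38, as for all genes) encodes a ligand of EphB receptors and EphA4. Its level was 62.5 CPM (60.2 to 64.7) with FGFRi, 25.1 CPM (23.8 to 26.4) without FGF2, 16.5 CPM (15.6 to 17.4) at 0.75 ng/ml, 10.4 CPM (9.64 to 11.2) at 3 ng/ml, then 8.51 CPM (7.84 to 9.21) at 12 ng/ml. None of these intervals overlapped, and the order ran from FGFRi through the rising doses. Efnb2 was 2.49-fold (2.34 to 2.66) lower without FGF2 than with FGFRi, and 2.95-fold (2.68 to 3.25) lower at 12 ng/ml than without FGF2. Between FGFRi and 12 ng/ml the difference was 7.34-fold (6.73 to 8.03).

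Efnb1 (chrX:99136130-99148991), an X-linked ligand of EphB receptors, had the same order over a smaller range. Its level was 24.1 CPM (22.7 to 25.5) with FGFRi, 21.5 CPM (20.3 to 22.8) without FGF2, 16.4 CPM (15.6 to 17.4) at 0.75 ng/ml, 12.4 CPM (11.6 to 13.3) at 3 ng/ml, then 12.0 CPM (11.2 to 12.9) at 12 ng/ml. The 2 highest doses did not differ beyond counting error. Efnb1 was 1.79-fold (1.64 to 1.96) lower at 12 ng/ml than without FGF2, and 2.01-fold (1.83 to 2.19) lower than with FGFRi.

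The receptors went the other way in sum. The summed level of the 8 receptors was 89.4 CPM with FGFRi and 97.4 CPM without FGF2, then 131, 156 and 144 CPM along the rising doses. The summed level of the 2 ephrins was 86.6, 46.6, 32.9, 22.8 and 20.5 CPM in the same libraries. The single receptors did not share 1 pattern.

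**Figure D1:**
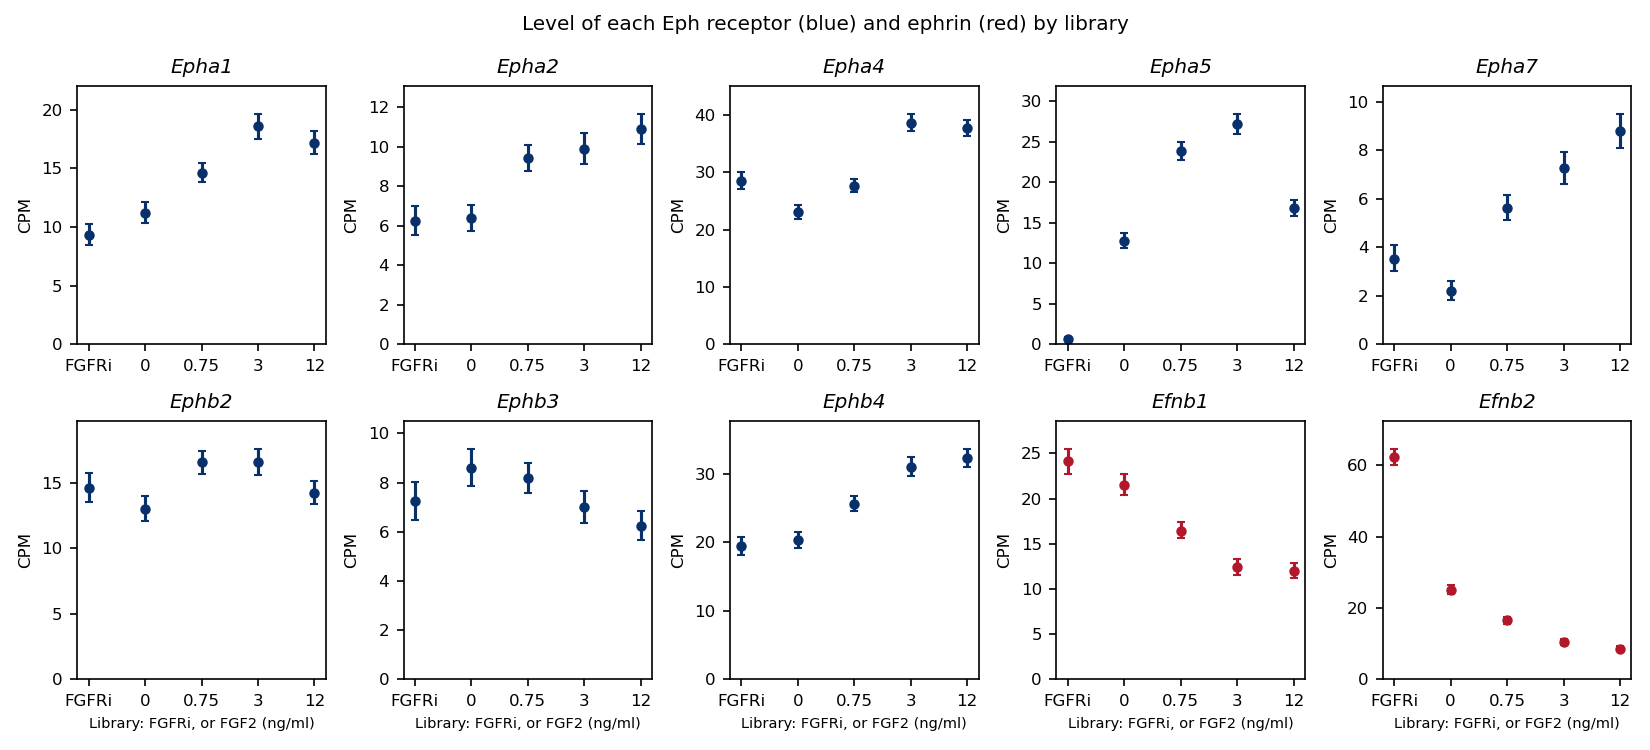
Level of each Eph receptor (blue) and ephrin (red) in CPM, with a vertical axis of its own per gene that starts at 0. Each point is 1 library, ordered as FGFRi and then FGF2 dose, and bars are exact Poisson 95% intervals. Efnb2 goes from 62.5 down to 8.51 CPM in this order, whereas Epha5 starts at 0.606 CPM, peaks at 27.2 CPM with 3 ng/ml and then reads 16.8 CPM.

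Epha5 (chr5:84054761-84417382), a receptor for ephrin-A ligands, was nearly undetected with FGFRi. Its 29 UMIs there correspond to 0.606 CPM (0.406 to 0.871). The level was 12.8 CPM (11.9 to 13.7) without FGF2, 23.8 CPM (22.8 to 24.9) at 0.75 ng/ml, 27.2 CPM (25.9 to 28.5) at 3 ng/ml, then 16.8 CPM (15.9 to 17.8) at 12 ng/ml. Epha5 was thus 21.1-fold (14.5 to 31.7) higher without FGF2 than with FGFRi, and 7 of the 8445 genes compared had a larger ratio in either direction. Epha5 entered this comparison only through the library without FGF2, as genes needed 10 CPM in either library. It was highest at 3 ng/ml and 1.62-fold (1.5 to 1.74) lower at 12 ng/ml. Few genes differed this much between those 2 libraries, and 38 of 7929 genes (0.479%) had a larger ratio.

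Epha7 (chr4:28813131-28967499), likewise a receptor for ephrin-A ligands, was the member with the largest ratio between 0 and 12 ng/ml. Its level was 3.53 CPM (3.02 to 4.11) with FGFRi, 2.18 CPM (1.82 to 2.60) without FGF2, 5.63 CPM (5.13 to 6.17) at 0.75 ng/ml, 7.26 CPM (6.62 to 7.95) at 3 ng/ml, then 8.79 CPM (8.11 to 9.51) at 12 ng/ml. The library without FGF2 was the lowest, below FGFRi, and no neighbors in the order overlapped. The level at 12 ng/ml was 4.03-fold (3.32 to 4.92) that without FGF2.

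Epha4 (chr1:77367185-77515088), which binds both ephrin classes and takes part in somite border formation, was at 28.5 CPM (27.0 to 30.0) with FGFRi and 23.0 CPM (21.8 to 24.3) without FGF2. It was at 27.6 CPM (26.5 to 28.8), 38.6 CPM (37.1 to 40.2) and 37.6 CPM (36.2 to 39.1) at 0.75, 3 and 12 ng/ml. The 2 highest doses lay above the other libraries and did not differ beyond counting error, nor did FGFRi and 0.75 ng/ml. Epha4 was 1.64-fold (1.53 to 1.75) higher at 12 ng/ml than without FGF2.

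Epha1 (chr6:42358487-42373268) and Epha2 (chr4:141301240-141329384), receptors for ephrin-A ligands that are known from epithelia, were higher at high FGF2 doses. Epha1 was at 9.30, 11.2, 14.6, 18.6 and 17.2 CPM from FGFRi to 12 ng/ml, and the ratio of 12 to 0 ng/ml was 1.53 (1.39 to 1.69). Epha2 was at 6.23, 6.37, 9.42, 9.89 and 10.9 CPM, and that ratio was 1.71 (1.5 to 1.94). For Epha2, FGFRi and 0 ng/ml did not differ beyond counting error, nor did neighbors among the 3 higher doses, whereas the step from 0 to 0.75 ng/ml was 1.48-fold (1.30 to 1.68).

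Among the EphB receptors, Ephb4 was higher and Ephb3 lower at higher doses. Ephb4 (chr5:137350109-137378669), a receptor of ephrin-B2 known from veins, was at 19.4 CPM with FGFRi and at 20.3, 25.6, 31.0 and 32.3 CPM along the doses, 1.59-fold (1.49 to 1.71) higher at 12 than at 0 ng/ml. Ephb2 (chr4:136647539-136835988), known from borders between tissues, was at 14.6, 13.0, 16.6, 16.6 and 14.2 CPM from FGFRi to 12 ng/ml, and no 2 libraries differed 1.5-fold. Ephb3 (chr16:21204755-21223305), a near relative of Ephb2, was at 7.23, 8.59, 8.17, 7.0 and 6.23 CPM. It was 1.38-fold (1.21 to 1.57) lower at 12 ng/ml than without FGF2, although none of its neighbors in order differed beyond counting error.

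A gene was counted as different between 2 libraries when it reached 10 CPM in either and differed at least 2-fold. From FGFRi to 0 ng/ml FGF2, 2 of the 7 members that reached this level passed, Epha5 upward and Efnb2 downward, where 7.99% of all genes compared passed. From 0 to 12 ng/ml, 1 of 8 passed, Efnb2, where 5.91% of all genes did. From FGFRi to 12 ng/ml, 3 of 8 passed, Epha5, Efnb1 and Efnb2, where 20.4% of all genes did. Efnb1 was just past the limit there, and fell short of it with all deposited barcodes (log2 change of -0.98) and with at most 5% mitochondrial UMIs (-0.99), which left 2 of 8. Epha5 in the comparisons with FGFRi, and Efnb2 in those with 12 ng/ml, reached 10 CPM only in the library where they were higher. Their passes there rest on that library.

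In the steps from 0 to 0.75, from 0.75 to 3 and from 3 to 12 ng/ml, 0 of 7, 0 of 7 and 0 of 8 members passed, where 1.72%, 0.859% and 0.0883% of all genes did. Efnb2, which passed over the whole series, was 1.52-fold, 1.58-fold and 1.22-fold lower in these steps. Epha7 and Ephb3 were under 10 CPM in every library and Epha2 in all but the 12 ng/ml library, so the counts do not cover Epha7 and Ephb3.

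The other 12 family genes place the members among their partners. Of these, 6 reached 5 CPM in a library, and all 6 are ephrins. Efna5 had the pattern of Efnb2, with 86.6, 44.1, 26.9, 20.1 and 17.0 CPM from FGFRi to 12 ng/ml, 2.60-fold (2.43 to 2.79) lower at 12 than at 0 ng/ml. Efna1 had the opposite pattern, with 2.93, 10.0, 14.4, 21.5 and 23.2 CPM, and Efna3 was 2.10-fold higher at 12 ng/ml than without FGF2. Efna4 (34.1 to 40.3 CPM), Efna2 and Efnb3 differed by less than 1.5-fold between any pair of libraries compared. In sum, the 5 ephrin-A genes were at 148 CPM with FGFRi and 112 CPM at 12 ng/ml, whereas the 3 ephrin-B genes were at 92.7 and 27.2 CPM.

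Of 20 genes for partners of the receptors and ligands (adaptors, Src family kinases, exchange factors, and the protease Adam10), 17 reached 10 CPM and 0 passed the rule of size from FGFRi to 0 ng/ml, where 7.99% of all genes did. From 0 to 12 ng/ml, 1 of 17 passed, where 5.91% of all genes did. This was Vav3, an exchange factor that acts downstream of Eph receptors, at 11.9 and 2.16 CPM. Of 11 genes of somite segmentation, 3 reached 10 CPM from 0 to 12 ng/ml, and all 3 passed upward, beside the same 5.91% of all genes in either direction. They were the Notch ligand Dll1 (8.82 and 67.4 CPM), the oscillating repressor Hes7 (29.3 and 102 CPM) and Mesp1 (1.58 and 15.9 CPM), a transcription factor of nascent mesoderm. Vav3, Dll1 and Mesp1 reached 10 CPM only in the library where they were higher, so their counts rest on that library. The other 8, among them Mesp2, Ripply1 and Ripply2, which mark forming somite borders, stayed under 10 CPM in both libraries. Those 3 were near absent at 0 and 12 ng/ml. Mesp2 was at 0.106 and 0.367 CPM, Ripply1 had 1 and 0 UMIs, and Ripply2 had 1 and 20 UMIs.

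In single cells, the members were sparse. To compare shares at equal depth, each cell was thinned to 10000 UMIs, which left out between 9 and 39 shallower cells per library. Efnb2 was then detected in 42.2% (39.8 to 44.6) of cells with FGFRi, and in 17.6%, 13.5%, 8.23% and 6.97% of cells along the doses. Without thinning the shares were 67.5%, 41.3%, 29.0%, 20.3% and 16.8%. Epha5 was detected in 0.722% (0.374 to 1.26) of thinned cells with FGFRi, and in 8.10%, 15.6%, 17.1% and 11.1% along the doses (1.53%, 15.5%, 26.8%, 28.8% and 21.8% without thinning).

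The share in the state of cells where a member was lowest bounds what free RNA can give in that library. Epha5 was detected in 0.333% (0.0403 to 1.20) of the 601 thinned FGFRi-treated cells with only Cdh1, and in 0.722% (0.374 to 1.26) over that library. These intervals overlap. Without thinning, Epha5 with FGFRi was at 0.991 CPM in cells with only Cdh2 and at 0.175 CPM in cells with only Cdh1. That ratio of 5.68 (1.62 to 30.4) rests on 3 UMIs in cells with only Cdh1. For Efnb2 the lowest share was 2.72% (1.85 to 3.84), in cells with only Cdh2 at 3 ng/ml, and for Epha1 2.44% (1.37 to 4.0), in such cells with FGFRi. Median depths of these 3 groups before thinning were 24053, 27942.5 and 23608 UMIs per cell. No cell type that should lack these genes was at hand, so that low shares of other members cannot be told apart from background.

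Epha5 UMIs were concentrated in fewer cells than those of Ephb4. Without FGF2, an Epha5-positive cell held 2.76 UMIs on average, and the tenth of cells with the most Epha5 UMIs held 87.2% of them. For Ephb4 these values were 1.54 UMIs and 40.9%, but its level was higher there, at 20.3 against 12.8 CPM. For Ephb2, at a like level of 13.0 CPM, they were 1.44 UMIs and 53.3%. At 3 ng/ml, 123 cells had 5 or more Epha5 UMIs, and a single cell held at most 20. For Efnb2, 151 cells had 5 or more UMIs with FGFRi and 9 cells at 12 ng/ml.

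The balance of cells with the 8 member receptors and cells with the 2 member ephrins differed between libraries. Ephrin-A genes, the main ligands of EphA receptors, were not counted here, so a cell without a member ephrin may hold another ephrin. Among thinned cells, Efna5 was detected in 52.1% with FGFRi and Efna4 in 32.7% at 12 ng/ml. At 10000 UMIs per cell, 25.0% (23.0 to 27.2) of FGFRi-treated cells had UMIs of at least 1 of the 8 receptors and of neither ephrin. This share was 41.0% without FGF2, and 53.1%, 63.6% and 61.5% at the rising doses. Cells with an ephrin and no receptor made up 23.5% (21.4 to 25.6) with FGFRi, 14.8% without FGF2, and 7.61%, 4.73% and 4.55% at the doses. Cells with both made up 30.0%, 15.6%, 16.4%, 12.1% and 11.3% of the libraries. The mean number of members detected per cell was between 1.14 and 1.40 in all libraries.

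**Figure D2:**
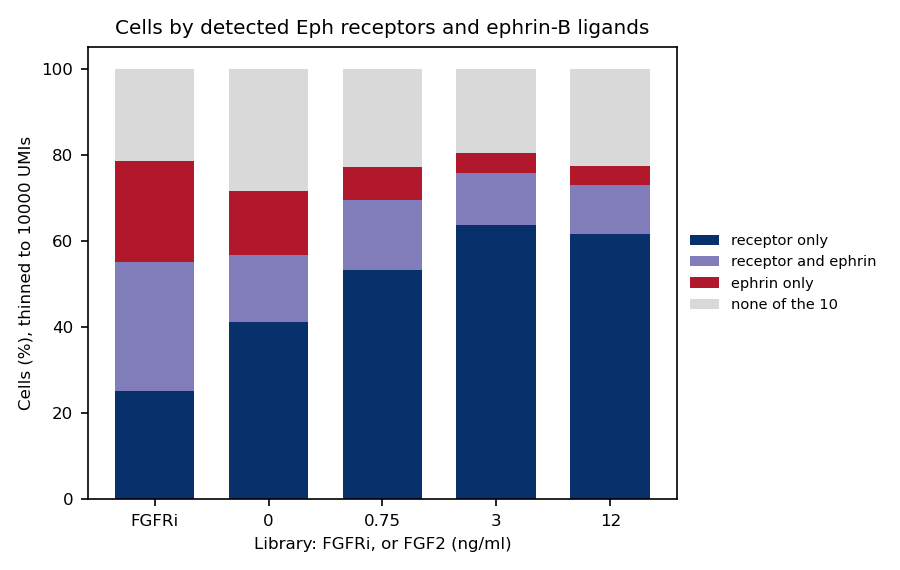
Share of cells in percent by detected members, per library, after thinning each cell to 10000 UMIs; stacked bars add to all thinned cells. Receptor-only cells (dark blue) go from 25.0% with FGFRi to 63.6% at 3 ng/ml FGF2, and ephrin-only cells (red) from 23.5% to 4.73%. Ephrin means Efnb1 or Efnb2 here, and ephrin-A genes are not counted.

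As EphB receptors and ephrin-B ligands can meet in 1 cell or on neighboring cells, it was asked whether they were detected in the same cells. For Epha4, Ephb2, Ephb3 and Ephb4, each with Efnb1 and Efnb2, the share of cells with both genes was divided by the product of both single shares. The 40 values of 8 pairs in 5 libraries lay between 0.547 and 1.42. Of these, 26 were below 1, in 2 the interval lay below 1, and in 0 it lay above 1. The 2 values were Epha4 with Efnb1 without FGF2 (0.653, 0.439 to 0.935) and Ephb2 with Efnb2 at 3 ng/ml (0.547, 0.3 to 0.916). The pair Ephb4 and Efnb2, a receptor and its main ligand, was below 1 in all 5 libraries, at 0.983, 0.854, 0.920, 0.882 and 0.933, and each of its intervals held 1. This depended on the thinning. With FGFRi its ratio was 1.11 at 5000 UMIs per cell and 1.06 without thinning, and 0 pairs were then below 1 in all libraries. The 40 intervals were not adjusted for their number, and a few of so many can leave out 1 by counting error alone. The 2 values with intervals below 1 are therefore not taken as departures from independent detection. For the other 38 values, a departure was not detectable at this depth.

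Cells were next grouped by the cadherins that mark epithelial (Cdh1) and mesenchymal (Cdh2) cells. Cells with only Cdh1 made up 36.3% of the FGFRi library, 43.3% without FGF2, and 38.7%, 20.8% and 14.1% at the doses. Cells with only Cdh2 made up 36.7%, 28.7%, 38.8%, 53.9% and 58.7%. The groups are named by these UMIs alone, and a cell without a UMI may still express the gene. Cells with both cadherins were the deepest, with medians between 31058 and 39233 UMIs, and cells with neither the shallowest. Summed epithelial markers, Cdh1 among them, were at 5084 and 516 CPM in cells with only Cdh1 and only Cdh2 with FGFRi, and at 3305 and 142 CPM at 12 ng/ml.

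Epha1 and Efnb2 were lower in cells with only Cdh2 in every library. Epha1 was at 15.8 and 3.22 CPM in cells with only Cdh1 and only Cdh2 with FGFRi, a 4.90-fold (3.63 to 6.72) difference. It was 2.54-fold, 2.58-fold, 1.72-fold and 1.51-fold lower in cells with only Cdh2 at 0, 0.75, 3 and 12 ng/ml. Among 6 members that reached 10 CPM in either state in all 5 libraries, Epha1 was the only one that differed at least 1.5-fold in the same direction in all of them, where 5.9% of all genes compared did. Its value at 12 ng/ml is just past this limit, and at no more than 5% mitochondrial UMIs it falls short, at a log2 ratio of -0.48. With FGFRi and at 0 and 0.75 ng/ml, Epha1 reached 10 CPM only in cells with only Cdh1. In cells with only Cdh2 it was at 3.22, 5.97 and 7.99 CPM there, so its pass in these libraries rests on the cells with only Cdh1.

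Efnb2 missed the limit only in the FGFRi library, where cells with only Cdh2 still held 50.1 CPM against 73.6 CPM in cells with only Cdh1. In the FGF2 libraries it was at 35.2, 25.4, 23.0 and 16.6 CPM in cells with only Cdh1 and at 6.97, 6.71, 4.29 and 4.45 CPM in cells with only Cdh2. The differences were 5.05-fold (4.12 to 6.25), 3.79-fold, 5.36-fold and 3.72-fold. Cells with both cadherins lay between these states, at 63.1 CPM with FGFRi and at 28.6, 16.8, 12.5 and 12.9 CPM along the doses. Within cells with only Cdh2, Efnb2 was 7.18-fold (5.86 to 8.89) lower without FGF2 than with FGFRi. Within cells with only Cdh1, it was 2.09-fold (1.92 to 2.29) lower. The cells with only Cdh2 differed in other markers between these 2 libraries. Their summed mesenchymal markers were at 2469 CPM with FGFRi and 586 CPM without FGF2, and their summed presomitic markers at 1.67 and 130 CPM. Over these whole libraries, Vim held most of the mesenchymal sum, at 1203 and 320 CPM. The part of these differences in the level of Efnb2 was not tested.

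Efnb1 did not differ beyond counting error between the states with FGFRi (23.6 and 26.1 CPM). It was 1.64-fold, 1.88-fold, 1.87-fold and 1.96-fold lower in cells with only Cdh2 along the doses. Within cells with only Cdh1, its level was 25.1 CPM without FGF2 and 20.1 CPM at 12 ng/ml.

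**Figure D3:**
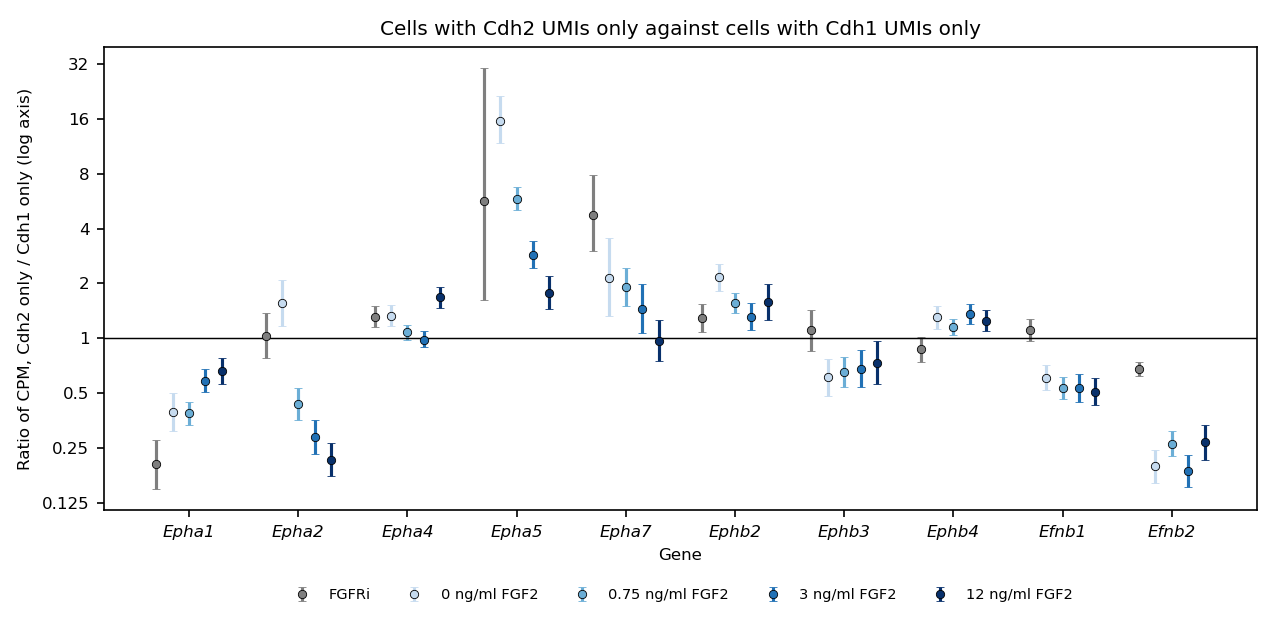
Ratio of the CPM of each member in cells with only Cdh2 UMIs to that in cells with only Cdh1 UMIs, on a log axis, for 5 libraries; bars are exact conditional 95% intervals and the line marks equal levels. Epha1 lies below 1 in all libraries (0.204 to 0.663), and Epha5 above 1 in all (1.78 to 15.7).

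Epha5 was on the other side. It was higher in cells with only Cdh2, at 34.1 against 2.18 CPM without FGF2 (15.7-fold, 11.7 to 21.3), at 43.5 against 7.47 CPM at 0.75 ng/ml, at 35.9 against 12.5 CPM at 3 ng/ml and at 19.4 against 10.9 CPM at 12 ng/ml. The FGFRi values rest on 3 UMIs in cells with only Cdh1. The ratio was smaller at each higher dose. The level with only Cdh1 was 5.0-fold (3.55 to 7.12) higher at 12 than at 0 ng/ml, and the level with only Cdh2 was 1.76-fold lower. Neither level moved in 1 direction at every step. Among the doses, the level with only Cdh1 was highest at 3 ng/ml and that with only Cdh2 at 0.75 ng/ml. Of all states and libraries, cells with only Cdh2 at 0.75 ng/ml had the highest level of Epha5. At 12 ng/ml, the 122 cells with neither cadherin were at 24.7 CPM (19.3 to 31.3), no lower than those with only Cdh2.

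The difference of Epha2 between the states changed direction along the doses. In cells with only Cdh1 it was at 6.05 CPM with FGFRi and at 4.14, 10.4, 15.5 and 21.1 CPM along the doses, 5.09-fold (3.98 to 6.54) higher at 12 than at 0 ng/ml. In cells with only Cdh2 it was at 6.26 CPM with FGFRi and at 6.50, 4.56, 4.44 and 4.55 CPM. The ratio of the states was therefore near 1 with FGFRi (1.03, 0.778 to 1.37), 1.57 (1.17 to 2.10) without FGF2 and 0.216 (0.176 to 0.265) at 12 ng/ml. Cells with both cadherins resembled those with only Cdh1 at 12 ng/ml, with 19.4 CPM. Over whole libraries the difference from 0 to 12 ng/ml was 1.71-fold, while the share of cells with only Cdh1 was lower at 12 ng/ml.

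Epha7 was 4.77-fold (3.01 to 7.85) higher in cells with only Cdh2 with FGFRi, and the ratio was 2.16, 1.91, 1.44 and 0.963 along the doses. Ephb2 was higher in cells with only Cdh2 in all libraries, by 1.29-fold to 2.16-fold. Ephb3 was lower in them in the 4 FGF2 libraries, by 1.37-fold to 1.63-fold. The ratios of Epha4 ranged from 0.985 to 1.68, largest at 12 ng/ml, while those of Ephb4 ranged from 0.871 to 1.36.

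**Figure D4:**
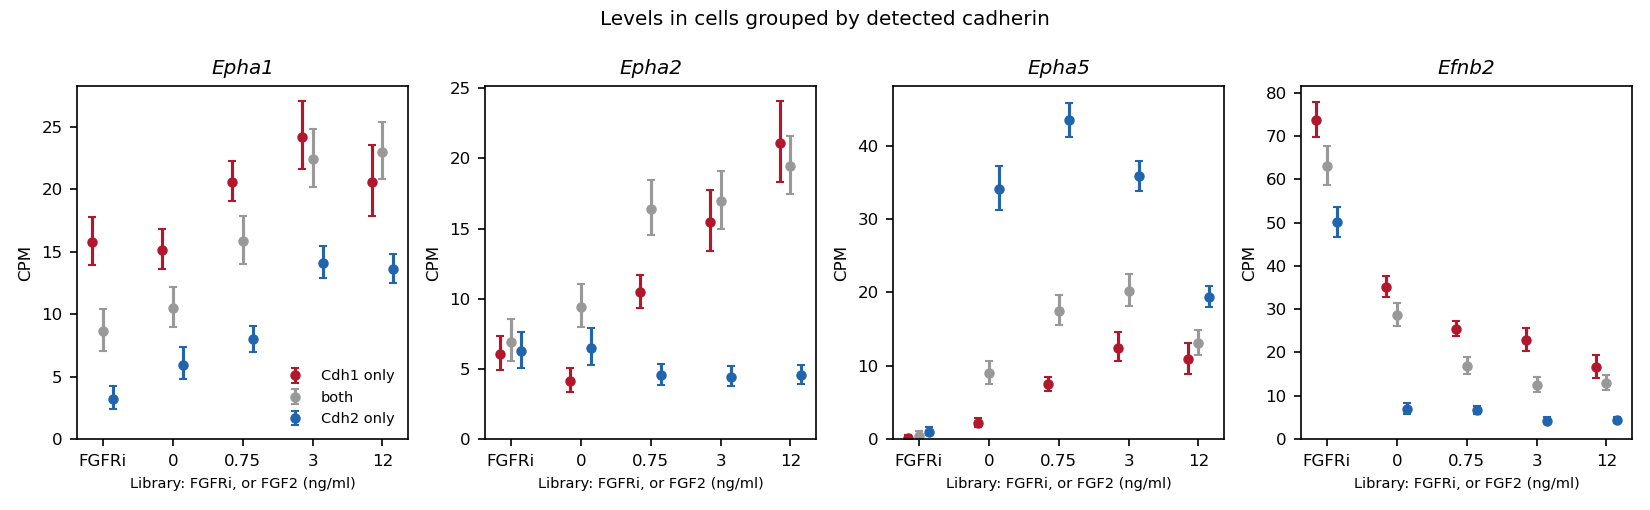
Level in CPM of Epha1, Epha2, Epha5 and Efnb2 in cells with UMIs of only Cdh1 (red), of both cadherins (gray) and of only Cdh2 (blue), for each library; bars are exact Poisson 95% intervals and all vertical axes start at 0. Epha2 goes from 4.14 to 21.1 CPM between 0 and 12 ng/ml FGF2 in cells with only Cdh1, and from 6.50 to 4.55 CPM in cells with only Cdh2.

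Tbx6, a transcription factor of presomitic mesoderm, was used to group the cells a further way. It was detected in 11 cells of the FGFRi library, too few to use, and in 135, 437, 767 and 1196 cells of the FGF2 libraries, or 7.96%, 16.0%, 36.1% and 49.7% of cells. The median depths of cells with and without Tbx6 were 32264 and 29342 UMIs without FGF2 and differed less at the other doses. A cell can be in a Tbx6 group and in a cadherin group at once, so these groups can share cells. Of 7 members that reached 10 CPM in all 4 libraries, 2 differed at least 1.5-fold in the same direction in all of them, Epha4 and Efnb2, where 5.45% of all genes compared did. Efnb2 reached 10 CPM only in cells without Tbx6 in each of these libraries, so its pass rests on those cells.

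Epha4 was higher in cells with Tbx6. It was at 44.7 CPM in them and 21.0 CPM in the other cells without FGF2, at 43.4 and 24.5 CPM at 0.75 ng/ml, at 53.5 and 30.0 CPM at 3 ng/ml and at 50.8 and 24.9 CPM at 12 ng/ml. The ratios were 2.13 (1.83 to 2.47), 1.77, 1.79 and 2.04. Cells without Tbx6 had their highest level at 3 ng/ml. In cells with Tbx6, the interval at 3 ng/ml (50.6 to 56.5) held the level at 12 ng/ml. Between 0 and 12 ng/ml, Epha4 differed by 1.13-fold (0.98 to 1.31) in cells with Tbx6 and by 1.19-fold (1.08 to 1.30) in the others. The part of the share of cells with Tbx6 in the 1.64-fold difference over the whole libraries was not tested.

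Efnb2 was lower in cells with Tbx6, at 7.81 against 26.6 CPM without FGF2, at 8.43 against 18.0 CPM at 0.75 ng/ml, at 5.20 against 13.5 CPM at 3 ng/ml and at 4.36 against 12.5 CPM at 12 ng/ml. The differences were 3.41-fold (2.46 to 4.87), 2.14-fold, 2.59-fold and 2.87-fold. In the library without FGF2, low levels were not particular to cells with Tbx6. There, the 486 cells with only Cdh2 outnumbered the 135 cells with Tbx6 and were at 6.97 CPM. At the rising doses, cells with only Cdh2 were at 6.71, 4.29 and 4.45 CPM, but a cell can be in both groups. In cells without Tbx6, Efnb2 was 2.13-fold lower at 12 than at 0 ng/ml. Efnb1 was lower in cells with Tbx6 as well, by 1.42-fold to 1.74-fold.

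Epha2 was lower in cells with Tbx6 as well. It was 1.74-fold, 2.04-fold, 2.38-fold and 4.15-fold lower in them along the doses, and at 12 ng/ml it was at 4.19 CPM in them and at 17.4 CPM in the other cells. Cells with only Cdh2 were at 4.55 CPM at that dose. Epha1 was 1.09-fold to 1.29-fold lower, and at 0 and 12 ng/ml its interval held 1. Ephb4 was higher in cells with Tbx6 at each dose, by 1.28-fold to 1.55-fold.

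Epha5 was higher in cells with Tbx6 without FGF2, at 22.2 against 11.9 CPM, and lower in them in the other libraries, at 15.2 against 25.5 CPM at 0.75 ng/ml, at 15.5 against 34.0 CPM at 3 ng/ml and at 10.2 against 23.2 CPM at 12 ng/ml. None of the 4 intervals of these ratios held 1. Cells with only Cdh2 were at 34.1, 43.5, 35.9 and 19.4 CPM along the doses, above cells with Tbx6 at each dose. Cells with only Cdh2 can also be cells with Tbx6. Both sides of the ratio differed between the library without FGF2 and that at 12 ng/ml. Cells with Tbx6 were lower at 12 ng/ml (22.2 and 10.2 CPM), and the other cells were higher (11.9 and 23.2 CPM). The part of the makeup of either group in the ratio was not tested.

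**Figure D5:**
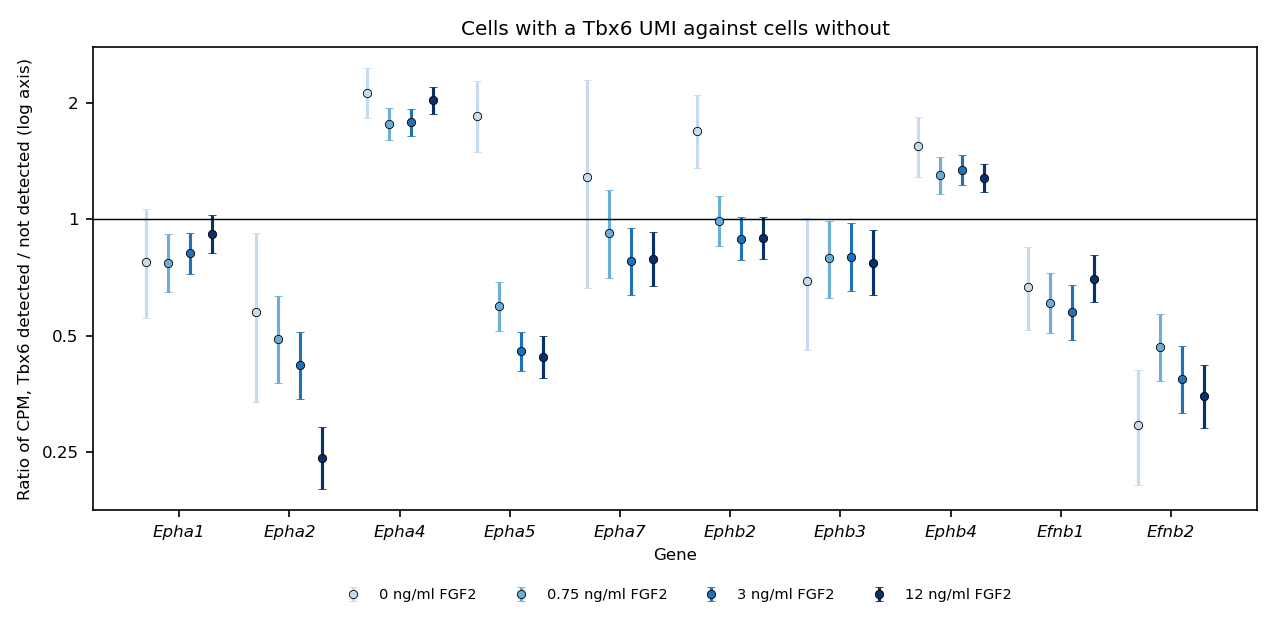
Ratio of the CPM of each member in cells with a Tbx6 UMI to that in cells without, on a log axis, for the 4 FGF2 libraries; bars are exact conditional 95% intervals and the line marks equal levels. Epha4 and Ephb4 lie above 1 and Epha2, Efnb1 and Efnb2 below 1 at each dose, and Epha5 lies above 1 only without FGF2.

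Likeness between genes was described by the Pearson correlation of levels on the log2(CPM + 1) scale. It was taken over 20 points, the 4 cadherin states (only Cdh1, only Cdh2, both, neither) of each of 5 libraries. The points of a library share its cells and depth, the smallest point holds 86 cells, and 9486 genes were compared. Epha5 was most like Hoxc4 (0.978), a Hox gene of axial patterning, and Zbtb16 (0.970). Efnb2 was most like March2 (0.975) and its family member Efna5 (0.975). Ephb4 was most like Arl4d (0.933) and Wnt3a (0.931), a Wnt ligand of the primitive streak. Epha1 was most like Cpox (0.940) and Helz (0.904), and Efnb1 most like Pdlim3 (0.944) and Dusp8 (0.936).

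The other members had less close companions. These were Tdrd5 (0.876) and Trap1a (0.859) for Epha2, Gtf2a1 (0.870) and March6 (0.780) for Epha4, Ttbk2 (0.875) and Irgm1 (0.820) for Epha7, Tfcp2 (0.864) and Tomm6 (0.859) for Ephb2, and Rnaseh2b (0.874) and Bclaf3 (0.809) for Ephb3. Among members, Efnb1 and Efnb2 correlated at 0.835 and Epha5 and Efnb2 at -0.894. With 1 library per condition, these values describe how levels lie across the points and are no test.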

How the data were processed

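Single cells of 5 libraries (10x 3′ v3.1 kit), 1 per condition, were analyzed. The authors aligned reads to mm10 and deposited UMI counts per gene for barcodes already called as cells, without further filters on cells or normalization. The matrix headers name Cell Ranger 5.0.1, whereas the methods of the study name an earlier version. Cells needed at least 2500 detected genes and at most 10% mitochondrial UMIs, and 10653 of 15375 barcodes passed, with 321559590 UMIs. Doublets were not called, and cells were not clustered. CPM were computed from summed UMIs with exact Poisson intervals, ratios of CPM with intervals from the exact conditional binomial, and shares with exact binomial (Clopper-Pearson) intervals, all at 95%. PCR copies were merged by UMI, and intervals cover counting error only. No test was run and no p-value computed. Thinning used random seed 0. Ratios between libraries or states were called by rules of size, at least 10 CPM and 2-fold or 1.5-fold. The 2-fold rule between libraries, its ratio intervals and the thinning were tested on simulated data, and the other steps were not.

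The genes named were the 10 members, family genes of at least 5 CPM in a library, up to 6 effector and segmentation genes past the rule, and the 2 genes most alike per member. Members and lists were chosen with earlier results of these data known. Positions came from GENCODE vM21 on GRCm38. Python 3.11.15, NumPy 2.4.6, SciPy 1.17.1, pandas 2.3.3, Matplotlib 3.10.9 and edgeR 4.0.16 in R 4.3.3 (TMM factors as an alternative) were used.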

Additional observations from a re-analysis of the deposited data

Results flagged for a closer look

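Epha5 stood in opposite directions between cells with and without Tbx6 UMIs. The ratio of its CPM in cells with Tbx6 to that in the other cells was 1.86 without FGF2 and 0.596, 0.455 and 0.441 at 0.75, 3 and 12 ng/ml FGF2. The intervals were 1.5 to 2.29, 0.512 to 0.689, 0.405 to 0.511 and 0.388 to 0.499. With 1 library per dose, the difference between the doses was not tested. The library without FGF2 held 135 cells with Tbx6, the fewest of the 4. Against cells with only Cdh2, cells with Tbx6 were lower in Epha5 at each dose, also without FGF2 (22.2 against 34.1 CPM). These groups can share cells.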

How the results depend on the processing

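With TMM factors, median-of-ratios size factors, all deposited barcodes, at most 5% mitochondrial UMIs or each cell given the same weight, all 60 log2 changes of members moved by less than counting error in each case. Efnb1 from FGFRi to 12 ng/ml fell just short of 2-fold in 2 of these cases, all deposited barcodes and at most 5% mitochondrial UMIs. No paired analysis was possible because each condition was 1 library.

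The counts of members depended on the rule itself. Each count is followed by the share of all genes compared that passed the same rule. With at least 50 CPM, 1 member passed from FGFRi to 0 ng/ml FGF2 (6.46%), 0 from 0 to 12 ng/ml (4.14%) and 1 from FGFRi to 12 ng/ml (19.3%). Only Efnb2 with FGFRi, at 62.5 CPM, reached that level. No member was thus compared from 0 to 12 ng/ml, and the 0 there was fixed in advance. In place of a CPM level, a minimum of 3 UMIs in either library was also used. With it, 1 passed from 0 to 0.75 ng/ml (13.8%) and 2 from 0 to 12 ng/ml (21.1%), Epha7 being added in both. With a ratio of 1.5, 2 passed from 0 to 0.75 ng/ml (5.39%), 1 from 0.75 to 3 ng/ml (3.26%), 1 from 3 to 12 ng/ml (0.946%), 6 from 0 to 12 ng/ml (13%) and 6 from FGFRi to 12 ng/ml (39.8%). Over all genes from 0 to 12 ng/ml, 487 passed, 130 with at least 50 CPM, 3922 with the minimum of 3 UMIs and 1067 at 1.5-fold. Between cadherin states, 0 members passed at 2-fold (2.76%), with states called after thinning to 10000 UMIs (4.75%) or at no more than 5% mitochondrial UMIs (5.54%), so that the count of 1, Epha1, is at its limit. Between Tbx6 states, 1 member, Efnb2, passed at 2-fold (2.6%), and it reached 10 CPM only in cells without Tbx6. Of the receptor and ephrin pairs, 0 were below 1 in all libraries at 5000 UMIs or without thinning, and 2 at no more than 5% mitochondrial UMIs.

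Of 90 ratios between states, 17 moved with states called after thinning. Of these, Epha4 between cadherin states at 3 ng/ml turned from a log2 ratio of -0.02 to 0.15. Fold values between states thus depend in part on the depth at which the states are called. Depth limits the shares and pairs above all. At 10000 UMIs a member is detected in at most 42.2% of cells of a library, and the spread between cultures is unknown.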
